A study of Mus musculus with 6 samples.

Results

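The genes described here build the contractile and structural skeleton of a fibroblast: Myh9 and Myl9 of nonmuscle and smooth muscle myosin, the actin genes Actb and Acta2, the actin-binding proteins Tpm1, Tagln and Flna, the nuclear lamins Lmna and Lmnb1, and the intermediate filament protein Vim. They were read from a table of KLF3 and KLF3 mutant binding sites in which each row is a peak of 400 bp named after the gene with the nearest transcription start site. A row belonged to the set when its gene name was 1 of these 10, and 36 of the 22188 rows did so, for 9 of the 10 genes. Myl9 had no row. The genes were chosen by their KLF3 heights among other things, since Myh9 and Lmna hold very high KLF3 peaks, so the KLF3 heights and the differences from KLF3 below are a description and no test was made on them.

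Chromatin immunoprecipitation (ChIP) with sequencing was carried out in Klf3-/- murine embryonic fibroblasts (MEFs) of the strain C57BL/6, so that none of the lines carried the endogenous protein. The lines differed in the V5-tagged construct that was returned to them by retrovirus: Klf3-V5, the full-length protein; ΔDL-V5, with a substitution in the motif that contacts the corepressor CtBP; and DBD-V5, which lacks the N-terminal domain and keeps the zinc fingers and a putative nuclear localization signal. Every line was a stable clone grown in DMEM with 10% FCS and was precipitated with an anti-V5 antibody in 2 replicates, with input DNA as the control. Because each construct was studied in a clone of its own, the construct and the clone cannot be told apart. The fibroblast identity of the lines was not checked here, because the files hold binding and not expression.

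KLF3 is a zinc finger repressor that binds CACCC boxes and related GC-rich elements and recruits CtBP through its N-terminal domain. Actin filaments, with nonmuscle myosin, tropomyosin and filamin, form the stress fibres through which fibroblasts pull on their matrix, while lamins line the inside of the nuclear envelope and vimentin forms the filament network between the nucleus and the cell edge. Many of the actin-related genes are classical targets of serum response factor (SRF), which binds the CArG box.

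The sequence under the centre of a few of these peaks is given as a description. The 100 bases around each centre are given 5′ to 3′ on the plus strand of mm9, with the 6-letter KLF words ACACCC or ACGCCC or CCACCC or CCGCCC, read on either strand, in capitals. They were chosen because they carry the main contrasts: the highest KLF3 peak of the set, a distal peak that ΔDL matched, a KLF3 peak in Lmna, the neighbouring peak that both DBD replicates called, the highest ΔDL peak and the lowest KLF3 peak.
Myh9 promoter, 204 bp upstream, chr15:77672699-77672798: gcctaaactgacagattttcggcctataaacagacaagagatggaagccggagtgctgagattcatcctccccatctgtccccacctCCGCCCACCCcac
Myh9 intergenic, 39809 bp upstream, chr15:77712304-77712403: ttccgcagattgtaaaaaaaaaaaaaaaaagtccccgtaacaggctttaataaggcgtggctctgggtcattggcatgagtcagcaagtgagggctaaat
Lmna intron, 258 bp downstream, chr3:88296913-88297012: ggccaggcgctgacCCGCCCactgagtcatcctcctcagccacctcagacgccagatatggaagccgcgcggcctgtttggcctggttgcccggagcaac
Lmna promoter, 440 bp upstream, chr3:88297611-88297710: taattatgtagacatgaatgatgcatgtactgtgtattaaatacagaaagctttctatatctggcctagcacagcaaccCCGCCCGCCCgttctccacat
Vim promoter, 690 bp upstream, chr2:13495198-13495297: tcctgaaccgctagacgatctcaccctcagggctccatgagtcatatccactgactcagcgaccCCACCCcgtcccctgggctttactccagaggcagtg
Tagln promoter, 71 bp upstream, chr9:45744162-45744261: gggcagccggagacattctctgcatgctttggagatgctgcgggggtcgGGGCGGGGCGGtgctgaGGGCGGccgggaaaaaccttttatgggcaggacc
The Myh9 promoter window held 2 overlapping words and the distal Myh9 window held 0. The Lmna windows held 1 word at the KLF3 peak and 2 at the peak that DBD called, the Vim window held 1 and the Tagln window held 3.

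Peak height is the log2 of the tags in 400 bp with both replicates combined and scaled to 100 M tags. The combined KLF3, ΔDL and DBD libraries held 23.3 M, 11.8 M and 16.0 M tags, so that 1 tag counted for 4.29, 8.45 and 6.23 normalized tags respectively. The replicates were unequal, from 1.77 M tags in ΔDL replicate 1 to 18.1 M in KLF3 replicate 2. Over the 2334 rows listed for all 3 proteins the median height was higher for both mutants than for KLF3, and setting these medians equal changes every ΔDL difference by -1.06 and every DBD difference by -0.42 on the log2 scale. Equal medians over all rows change them by -0.17 and 1.16. After the first of these scalings ΔDL was below KLF3 at all 36 peaks of the set, so each statement below that ΔDL was level with or above KLF3 holds for the deposited heights, which are given unless a scaling is named.

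The cytoskeleton genes held some of the highest KLF3 peaks of the genome. Their 36 peaks had a median log2 height of 8.99 for KLF3, 8.66 for ΔDL and 5.86 for DBD, against 7.35, 7.52 and 6.19 over all rows, and 8 of them were among the highest 222 rows, or 1%, by KLF3 height. The Myh9 promoter, at 1846 normalized tags, ranked 2 of 22188. Next in the set came the promoter of Lmnb1 at rank 5, intron 1 of Actb at rank 25 and both the promoter and an intron 1 peak of Vim at rank 59. The lowest peak of the set was that of Tagln, with a height of 7.55. Of the 36 peaks, 8 lay at promoters, 17 in introns and 11 between genes.

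**Figure D1:**
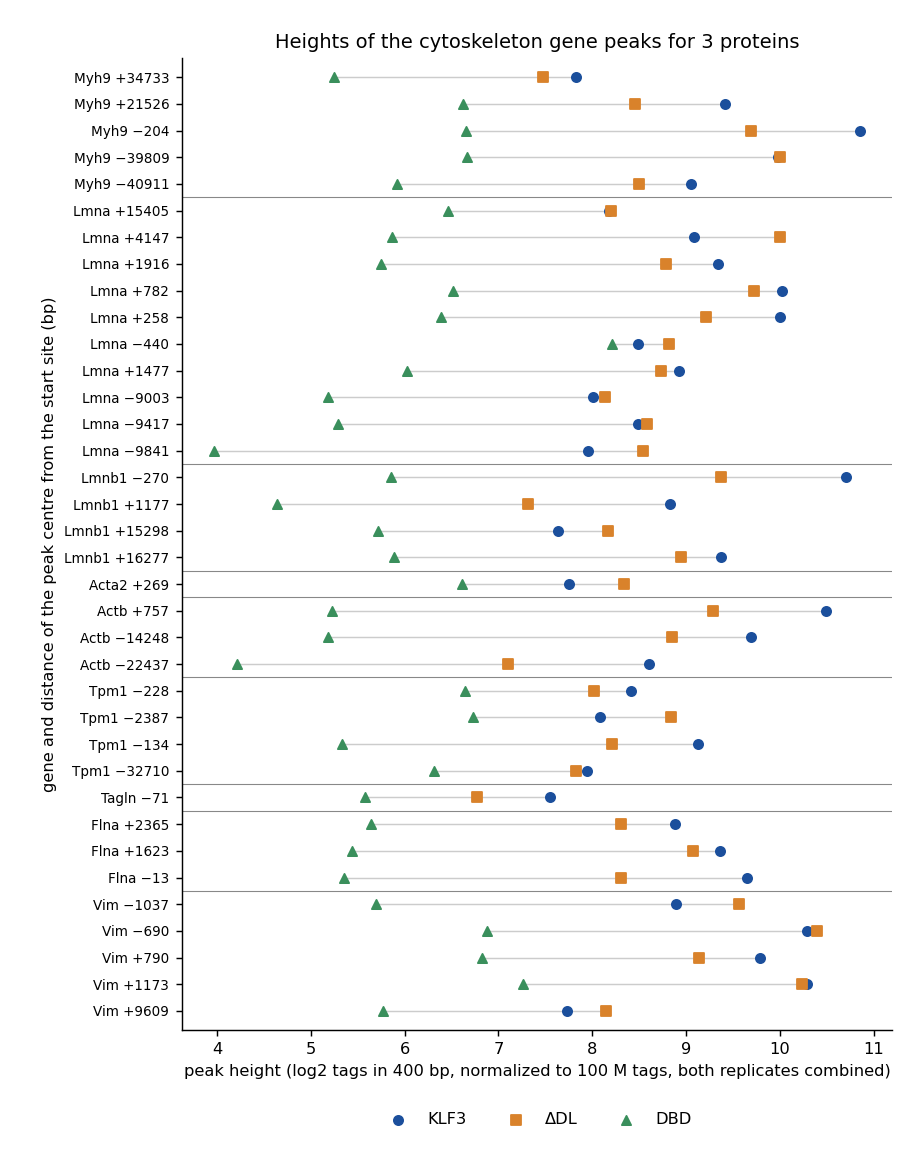
Log2 peak height on the horizontal axis (tags in 400 bp, normalized to 100 M, both replicates combined) for each of the 36 peaks, named by gene and by distance in bp from the start site; circles are KLF3, squares ΔDL and triangles DBD. KLF3 and ΔDL lie close together, between 6.77 and 10.85, and DBD lies apart at the left in all rows but Lmna −440, where its height was 8.21.

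The replicate lists, in which the authors called peaks on each replicate alone, give the reproducibility of these sites. KLF3 replicate 1 called 34 of the 36 peaks and KLF3 replicate 2 called 33, and 33 were in both lists (64.1% over all rows). For ΔDL the counts were 16 in replicate 1 and 30 in replicate 2, and 16 peaks were in both (55.9% over all rows). DBD replicate 1 called 2 peaks and replicate 2 called 3, with 1 peak in both (22.4% over all rows). Rows with a KLF3 height of at least 8 were compared after the values were seen. Among them both ΔDL lists held 44.8% of the peaks of the set and 31.0% of all such rows. At least 1 DBD list held 13.8% and 6.78% of them respectively. The KLF3 lists chose the set, so only the mutants can be compared: ΔDL called 23.0 ± 9.90 of the peaks per list (SD, n = 2) and DBD 2.50 ± 0.707 (SD, n = 2). The counts of the ΔDL lists did not overlap those of the DBD lists, but the two-sided exact permutation test gave p = 0.333, the smallest value that 2 lists against 2 allow. Over all rows they did not overlap either: the ΔDL lists held 57.4% and 82.8% of the rows and the DBD lists 31.0% and 27.4%.

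Myh9 encodes the heavy chain of nonmuscle myosin IIA, the motor of the stress fibres, and lies on the minus strand of chromosome 15 (mm9, 77591017 to 77672605). Its promoter peak, 204 bp upstream of the start site, had log2 heights of 10.85 (KLF3), 9.69 (ΔDL) and 6.65 (DBD). The lists held it with 56 tags in KLF3 replicate 1, 163 in KLF3 replicate 2, 8 in ΔDL replicate 1 and 34 in ΔDL replicate 2, and in neither DBD list. The table lists this peak for ΔDL alone, although both KLF3 replicates called it. Their called intervals, 77672721 to 77672843 in replicate 1 and 77672554 to 77672696 in replicate 2, had 0 bp in common, and the merged KLF3 list holds no peak there. Its replicate scores, in tags per 100 M, were 1026 and 901 for KLF3 and 453 and 332 for ΔDL, so the groups did not overlap.

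The distal Myh9 sites differed in how far ΔDL kept the signal. At 39809 bp upstream the heights were 9.98 for KLF3, 10.00 for ΔDL and 6.67 for DBD, and 5 of the 6 lists called the peak, with 70 and 120 tags in the KLF3 replicates, 13 and 78 in those of ΔDL and 10 in DBD replicate 2. The neighbouring peak at 40911 bp upstream had heights of 9.05, 8.50 and 5.92 for KLF3, ΔDL and DBD. In intron 1, 21526 bp downstream of the start site, they were 9.42, 8.46 and 6.62. ΔDL was level with KLF3 at the first of these sites, with a difference of 0.02 (95% counting interval -0.31 to 0.34), and below it in intron 1, with -0.96 (-1.48 to -0.45). The fifth peak, in intron 3, was the lowest of the gene, with heights of 7.83, 7.48 and 5.25.

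Lmna encodes lamins A and C and had 10 rows, a number reached by 126 of the 10750 genes in the table (1.17%). Its peaks fell around 2 annotated start sites of the gene, which spans 88285070 to 88313878 on the minus strand of chromosome 3 (mm9). The highest was 782 bp downstream of a start site in intron 1, with heights of 10.02 for KLF3, 9.72 for ΔDL and 6.52 for DBD, and the peak at 258 bp downstream nearly matched it for KLF3, at 10.00, with 9.21 for ΔDL and 6.39 for DBD. Both were called in all KLF3 and ΔDL lists and in no DBD list. The 258 bp peak had 39 and 132 tags in the KLF3 replicates and 9 and 34 in the ΔDL replicates.

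Within intron 1 of Lmna the order of KLF3 and ΔDL changed over a few kilobases. At 1916 bp downstream KLF3 stood above ΔDL, with 9.34 against 8.79, and neither ΔDL list called the peak. At 4147 bp downstream ΔDL stood above KLF3, with 10.00 against 9.09, which was the largest difference in this direction in the set, 0.91 (0.54 to 1.28). Its replicate scores were 531 and 404 for KLF3 and 850 and 586 for ΔDL, which did not overlap. After scaling to the rows of all 3 proteins this difference became -0.15, so its direction depends on the scaling. The DBD height there was 5.87.

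Lmna also held the only peak of the set that both DBD replicates called. It lay at a promoter, 440 bp upstream and 698 bp from the centre of the 258 bp peak, and had heights of 8.49 for KLF3, 8.82 for ΔDL and 8.21 for DBD. DBD replicate 1 called it with 11 tags and DBD replicate 2 with 21, while no KLF3 or ΔDL list did. The DBD height was 82.4% of that of KLF3 in tags (difference -0.28, interval -0.84 to 0.23), against 8.19% at the 258 bp peak. A group of 3 intergenic peaks between 9003 and 9841 bp upstream of the other start site had KLF3 heights from 7.95 to 8.49 and ΔDL heights from 8.14 to 8.58, and the remaining intergenic peak, 15405 bp downstream, had 8.18 and 8.20.

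**Figure D2:**
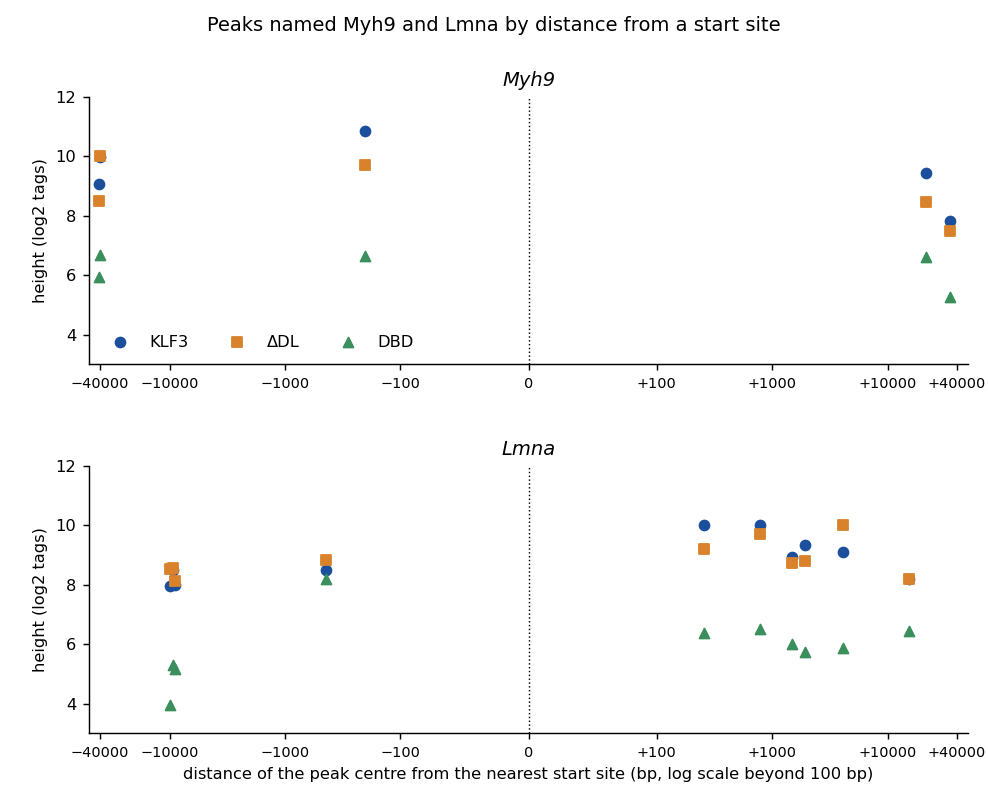
Log2 peak height against the distance of the peak centre from the nearest start site in bp (log scale beyond 100 bp) for the rows of Myh9 above and Lmna below; circles are KLF3, squares ΔDL and triangles DBD. The highest KLF3 point of Myh9, at 10.85, lies 204 bp upstream, and the DBD point of Lmna at 440 bp upstream, at 8.21, is the only triangle level with the other symbols.

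Lmnb1 encodes lamin B1, the lamin that is bound to the nuclear membrane through its lipid anchor. Its promoter peak, 270 bp upstream, had heights of 10.71 (KLF3), 9.37 (ΔDL) and 5.85 (DBD). The tags were 50 and 178 in the KLF3 replicates and 8 and 47 in the ΔDL replicates, with no DBD call. ΔDL was at 39.5% and DBD at 3.44% of the KLF3 tags. In intron 1 of Lmnb1 the peak nearest the start site, 1177 bp downstream, had the largest fall for ΔDL in the set, from 8.83 to 7.32 (difference -1.51, interval -2.29 to -0.79). The other intron peaks did not share it: at 16277 bp the heights were 9.37 for KLF3 and 8.95 for ΔDL, and at 15298 bp they were 7.63 and 8.17.

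Actb encodes β-actin. Its peak in intron 1, 757 bp downstream of the start site, had heights of 10.49 for KLF3, 9.29 for ΔDL and 5.22 for DBD, so that DBD was at 2.59% of the KLF3 tags, the lowest share in the set. KLF3 replicates held 44 and 144 tags and ΔDL replicates 13 and 29. Both intergenic peaks of Actb were also lower for ΔDL: 9.69 against 8.85 at 14248 bp upstream and 8.60 against 7.10 at 22437 bp upstream. Of the genes with more than 1 peak, Actb had the lowest median ΔDL difference, -1.20. For Acta2, which encodes the α-smooth muscle actin of myofibroblasts, the single peak 269 bp into the gene had heights of 7.75 for KLF3, 8.34 for ΔDL and 6.61 for DBD, and the interval of its ΔDL difference, -0.07 to 1.22, held 0. Its tags were 9 and 16 in the KLF3 lists and 17 in ΔDL replicate 2.

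Among the actin-binding proteins, Flna, whose product crosslinks actin filaments, had 3 peaks close together on the X chromosome. The promoter peak, 13 bp upstream, had heights of 9.65 for KLF3, 8.31 for ΔDL and 5.35 for DBD, with 45 and 74 tags in the KLF3 lists and 15 in ΔDL replicate 2 alone. The peaks in intron 1 at 1623 and 2365 bp downstream had smaller ΔDL differences, -0.29 and -0.57, than the promoter, -1.34. Tpm1, which encodes a tropomyosin that lies along the actin filament, had peaks at a pair of its promoters. The one 134 bp upstream had 9.13 for KLF3 and 8.21 for ΔDL, with 27 and 68 tags for KLF3, and the one 228 bp upstream had 8.41 and 8.02. A Tpm1 peak in intron 2 was called by both ΔDL lists, with 9 and 19 tags, and by neither KLF3 list, and had 8.08 for KLF3, 8.84 for ΔDL and 6.73 for DBD. Tagln, which encodes the actin-binding protein transgelin, had only its promoter peak, with 7.55, 6.77 and 5.58 for KLF3, ΔDL and DBD; both KLF3 lists called it, with 11 and 16 tags, and no mutant list did.

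Vim encodes vimentin, the intermediate filament protein of mesenchymal cells, and was the gene at which ΔDL reached its highest values in the set. At the promoter, 690 bp upstream, the heights were 10.29 (KLF3), 10.40 (ΔDL) and 6.88 (DBD), with 83 and 147 tags in the KLF3 lists and 19 and 88 in the ΔDL lists. In intron 1, 1173 bp downstream, they were 10.29, 10.24 and 7.26, and DBD replicate 1 called the peak with 12 tags. At both sites the replicate scores of ΔDL and KLF3 overlapped: 1521 and 813 for KLF3 against 1076 and 860 for ΔDL at the promoter, and 898 and 802 against 850 and 655 in the intron. Another peak, 790 bp downstream, shared 18 bp with the intron 1 row and had 9.79 for KLF3 and 9.14 for ΔDL. A row 1037 bp upstream shared 54 bp with the promoter row and had 8.89 and 9.57, so tags in the shared bases entered both rows of each pair.

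Myl9, the regulatory light chain of smooth muscle and nonmuscle myosin, was called in each KLF3 list, but at different places. KLF3 replicate 1 held an intergenic peak at 15614 bp from its start site with 7 tags and KLF3 replicate 2 a promoter peak at -280 bp with 13 tags. No mutant list named Myl9.

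Taking the set as a whole, ΔDL was lower than KLF3 at 23 of the 36 peaks and higher at 13, against 9174 lower of all 22188 rows. The median difference was -0.33 against 0.42 over all rows. With equal medians over all rows ΔDL was lower at 28 peaks of the set and at 10045 of all rows. Rows with a KLF3 height of at least 8 were compared after the values were seen. Among them ΔDL was lower at 69.0% of the peaks of the set and at 80.7% of all such rows. Heights of the same interval differed by up to 0.12 between the deposited files, and 6 of the 36 differences were no larger than that, which leaves 21 lower and 9 higher peaks. The counting interval lay below 0 at 14 peaks, above 0 at 3 and held 0 at 19. It covers counting error only, compares combined libraries and treats the constructs' libraries as single samples. Intervals were computed for the peaks of the set alone, so their counts have no share over all rows beside them. At least 2-fold lower were 6 peaks, at Myh9, Lmnb1, Actb and Flna (14.8% over all rows), and 0 were at least 2-fold higher (28.8% over all rows). After scaling to the rows of all 3 proteins the count of lower peaks was 25 (42.9% over all rows).

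The median ΔDL difference was lowest at promoters. There it was -0.85, and 3 of 8 were at least 2-fold lower (33.6% over promoter rows). Intronic peaks had -0.35, with 2 of 17 (11.9% over intronic rows), and intergenic peaks had 0.02, with 1 of 11 (7.86% over intergenic rows). The medians over all rows were -0.68, 0.64 and 0.86 in the same order. Against rows with a KLF3 height of at least 8, a comparison chosen after the values were seen, the 29 such peaks of the set had a median of -0.42 and all 6751 such rows had -0.61. At least 2-fold lower were 20.7% of these peaks and 30.2% of all such rows. By class the shares were 42.9% against 37.2% at promoters, 14.3% against 25.5% in introns and 12.5% against 21.5% between genes. Vim, with 0.11 at its promoter peak, and Lmna, with 0.33 at its, stood at the upper end of the promoter peaks. Those of Lmnb1 and Flna were lowest at -1.34. The Vim value is within the 0.12 by which heights differed between the deposited files.

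**Figure D3:**
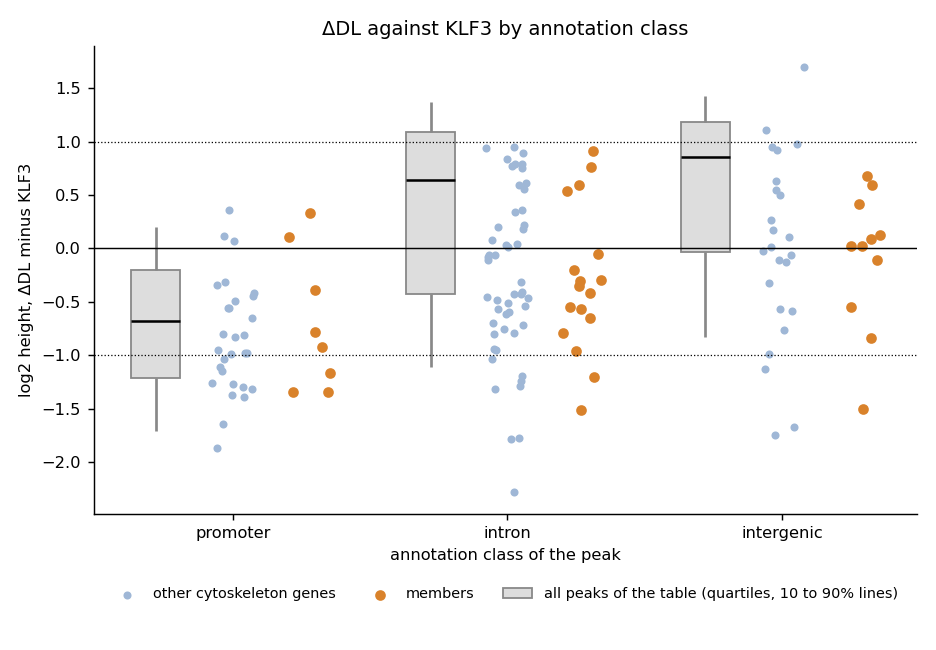
Log2 height of ΔDL minus KLF3 by annotation class; grey boxes are the quartiles of all rows of the table with the median as a line and lines to the 10th and 90th percentiles, pale points are peaks of the other cytoskeleton genes and orange points the peaks of the set, and dotted lines mark 2-fold. The orange points fall from a median of 0.02 between genes to -0.85 at promoters.

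Replicate scores could be set side by side at the 14 of 36 peaks that all KLF3 and ΔDL lists called. Both KLF3 scores were above both ΔDL scores at 5 of them (7.2% over all rows called in these lists): the promoters of Myh9 and Lmnb1, intron 1 of Actb, the Lmna peak at 258 bp and the Flna peak at 1623 bp. At 3 peaks both ΔDL scores were the higher (27.6% over the same rows), 2 of them at Lmna and 1 at Lmnb1. The rows behind these shares were not matched for KLF3 height, by which the genes were partly chosen. The counts and shares are therefore a description and no trait of the genes can be read from them. At the Lmnb1 peak, 15298 bp downstream, the called intervals of the ΔDL replicates had 0 bp in common, as had those of KLF3 at the Myh9 promoter. The merged ΔDL list holds no peak there, and the call of ΔDL replicate 1 had 5 tags. At the other 6 the scores of the proteins overlapped. The exact permutation test of a single peak cannot go below 0.333 with 2 lists a protein, and none was run.

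**Figure D4:**
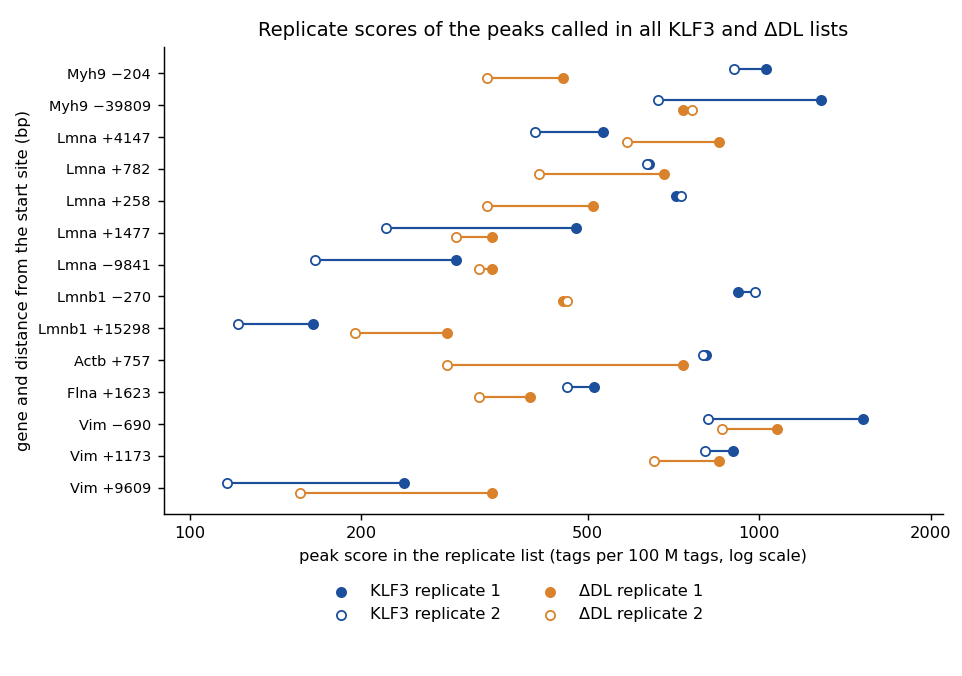
Peak score (tags per 100 M tags, log scale) in each replicate list for the 14 peaks called in all KLF3 and ΔDL lists; filled points are replicate 1, open points replicate 2 and the lines join the replicates of a protein. The blue KLF3 points of the Myh9 promoter, at 901 and 1026, lie apart from its ΔDL points at 332 and 453, and the points of Vim −690 overlap.

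DBD was lower than KLF3 at all 36 peaks, or at 34 with equal medians over all rows, which turned the Acta2 peak and the Lmna promoter peak. In the whole table it was lower at 13119 of 22188 rows, or at 11518 with equal medians over all rows. The deposited differences ran from -5.27 in intron 1 of Actb to -0.28 at the Lmna promoter, with a median of -3.21 against -1.45 over all rows. At least 2-fold lower were 35 (52.6% over all rows) and 0 were at least 2-fold higher (3.27% over all rows). The Lmna promoter peak was the exception. After scaling to the rows of all 3 proteins the count of lower peaks was also 35 (53.7% over all rows). With equal medians over all rows it was 27 (40.8% over all rows). Rows with a KLF3 height of at least 8 were compared after the values were seen. There the 29 peaks of the set had a median of -3.31 and all 6751 rows -3.09. At least 2-fold lower were 96.6% and 98.6% of them respectively. Between the mutants, ΔDL was higher than DBD at all 36 peaks and at least 2-fold higher at 35, with a median difference of 2.89 against 1.16 over all rows. The median over all rows was thus itself past 2-fold, and the share of all rows past these lines was not counted. Equal medians over the rows of all 3 proteins left 35 peaks higher and 32 by at least 2-fold, and equal medians over all rows left 34 and 26, with the Lmna promoter the lowest under either. This comparison has no KLF3 value in it, though ΔDL shares most of its sequence with the protein that chose the set. The smallest difference, 0.61 (0.02 to 1.21), was again that of the Lmna promoter peak, and the counting interval held 0 at the Tagln promoter alone, with a difference of 1.19 (-0.24 to 2.62).

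**Figure D5:**
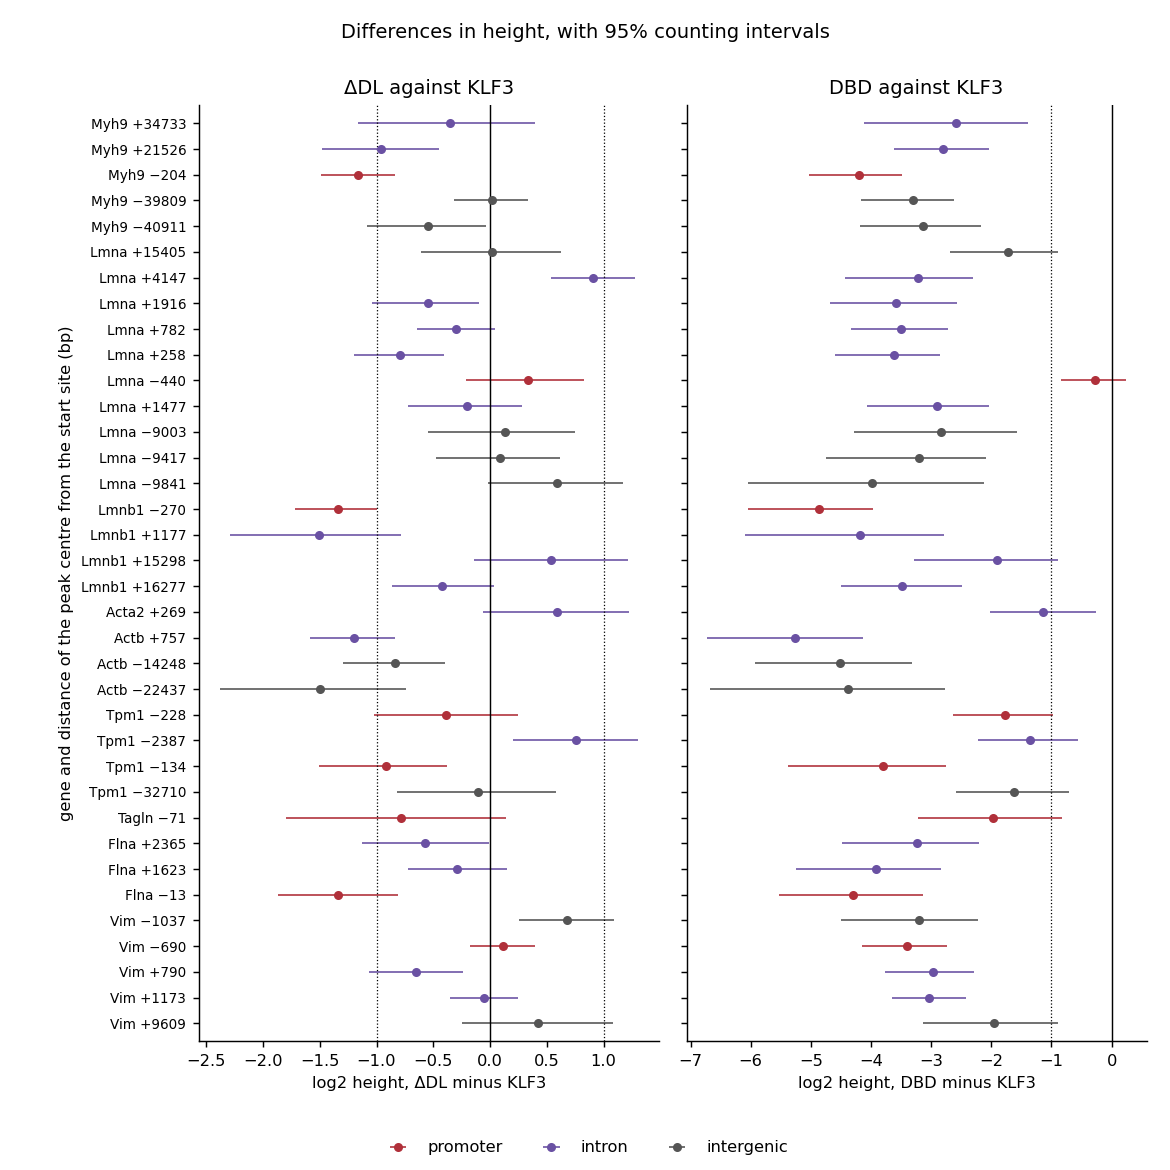
Log2 height of ΔDL minus KLF3 (left) and DBD minus KLF3 (right) for each of the 36 peaks, with 95% counting intervals as bars and colours for promoter, intronic and intergenic peaks; dotted lines mark 2-fold. The ΔDL points lie on both sides of 0, from -1.51 to 0.91, and the DBD points of the deposited heights lie below -1 except that of Lmna −440.

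KLF words were found in 34 of the 36 windows of 400 bp (94.4%), against 60.0% of all rows, and the median window held 2. All 8 promoter windows held a word (97.0% of promoter rows), as did all 17 intronic windows (56.4% of intronic rows) and 9 of 11 intergenic windows (44.8%). Among rows with a KLF3 height of at least 8 the share was 92.1%. The Myh9 promoter held the most, 9 words, and the Tagln promoter, the Flna promoter and 1 peak in intron 1 each of Lmnb1 and Flna held 6. The windows without a word were those of Lmna at 9003 bp upstream and Vim at 9609 bp downstream. G+C content ranged from 37.4% at Acta2 to 72.6% at the Lmnb1 promoter.

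The CArG box, the binding element of SRF, was in 5 of the 36 windows (13.9%), against 2.20% of all rows. These matches are shown with 9 bases on either side, on the plus strand of mm9, with the box in capitals.
Tagln promoter, chr9:45744121-45744130: acacaggctCCATATTTGGggaaagaca
Tagln promoter, chr9:45744244-45744253: cgggaaaaaCCTTTTATGGgcaggaccc
Actb intron 1, chr5:143667527-143667536: gcattattaCCATAAAAGGcaaacgctg
Actb 22437 bp upstream, chr5:143690866-143690875: acgagtcgtCCATAAAAGGcaaggagcg
Flna intron 1, chrX:71490148-71490157: atttttttgCCTTATATGGcaaagctct
Tpm1 intron 2, chr9:66894181-66894190: aattcctttCCTTATATGGaatatctct
All of these genes encode actin or an actin-binding protein, and no window of Myh9, the lamins, Vim or Acta2 held the box. The labels name the annotation of the peak and not of the box. The Tagln boxes lay at -91 and 32 bp from the peak centre, counted along the plus strand, while Tagln lies on the minus strand. The box at -91 fell in an untranslated region of Tagln, and that of the Actb intron 1 peak in an untranslated region of Actb. The AP-1 word TGANTCA was in 12 windows (33.3%, against 22.5% of all rows), with 2 copies each at the Vim promoter and the distal Myh9 peak. The ΔDL differences of these 12 windows ran from -0.84 at Actb, 14248 bp upstream, to 0.59 at Acta2. The TEAD word GGAATG was in 11 windows (30.6%, against 23.1%), the CCAAT word in 15 (41.7%, against 44.1%) and the ETS word CCGGAA in 3 (8.33%, against 11.5%). A match is a string of letters and was not tested as a site.

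RefSeq promoters on GRCm38, from 250 bases before to 50 after a start site, were at hand for 7 of the 10 genes. Of their 8 windows 7 held a KLF word, against 62.2% of 32851 promoters of all genes, and that of Myh9 held 9. Myl9, which had no row, had 5 KLF words and a CArG box there, against 1.63% of all promoters for the box. The conservation of the peaks, as the mean PhastCons score, was known for 28 of them, with a median of 0.185 against 0.09 over all rows, and was highest at the Tpm1 promoter 134 bp upstream, at 0.69.

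A wider list of 48 actomyosin, lamina and intermediate filament genes, chosen for their roles and without overlap with the set, had 39 genes with a row and 108 rows. Their median difference was -0.45 for ΔDL and -2.80 for DBD, against 0.42 and -1.45 over all rows. For ΔDL 23 rows were at least 2-fold lower (21.3%, against 14.8% over all rows) and 2 at least 2-fold higher (1.85%, against 28.8%). For DBD 94 were lower (87.0%, against 52.6%) and 1 higher (0.926%, against 3.27%). The median KLF3 height of this list was 8.185 against 7.35 over all rows, and shares matched for KLF3 height were not counted for it. The highest KLF3 peaks are named with 1 peak a gene. The first was in intron 1 of Plec, which encodes the cytolinker plectin, with 10.59 for KLF3, 10.67 for ΔDL and 6.34 for DBD. Cfl1, the actin-severing cofilin, had 10.06, 10.18 and 8.41 at its promoter and was called in all 6 lists. Then came Actn1 (α-actinin) with 9.86, 8.59 and 5.45, Sun1 (a nuclear envelope linker) with 9.69, 8.05 and 5.70, and Tpm4 (a tropomyosin) with 9.61, 9.53 and 5.75. Among rows with a KLF3 height of at least 8 the falls for ΔDL were largest at Syne2 (-2.28) and Actn4 (-1.87), and the differences were highest at Cald1 (0.77), Mkl2 (0.20) and Cfl1 (0.12). As in the set described above, this list held peaks at which ΔDL was level with KLF3 and peaks at which it was at least 2-fold lower. DBD was lower at 98 of the 108 rows, against 13119 of all 22188 rows. The CArG box was in 7 of these 108 windows (6.48%, against 2.20% of all rows). Srf had no row.

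The rows most like the Myh9 promoter over the 3 heights, by Euclidean distance among the highest peaks of 10741 other genes, were those of Ppp1r2 (distance 0.27), Alox5ap (0.33) and Pvrl3 (0.35). For the highest Lmna peak they were those of Emp1 (0.11), Bmper (0.17) and Scgb1a1 (0.19).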

How the data were processed

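Immunoprecipitations in 3 MEF lines were analysed from the table of all peaks, the 3 merged lists and the 6 lists of single replicates; the inputs entered only through peak calling. Reads were aligned to mm9 by the authors with Bowtie2 2.0.0, and peaks were found in each replicate by HOMER 4.1 with RefSeq annotation. The heights are deposited as log2 tags in 400 bp with both replicates combined per 100 M tags. The authors' score of a replicate peak is a signal in tags per 100 M, and its whole multiples of 1 step gave the tags. G+C content was deposited as a fraction by the authors, and the deposited conservation score is the mean PhastCons value.

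The members and all lists were chosen with earlier results of these data known. Every row of the 10 genes is described; from the wider list, the 5 highest KLF3 peaks and the 3 most and 3 least reduced for ΔDL are named, with 1 peak a gene, and 3 genes of nearest heights for Myh9 and Lmna. The result for 1 gene that this rule names is not reported here. A row was found in a list when they shared at least 1 bp. Words were sought on both strands of mm9, and windows equalled the deposited G+C in 18371 of 18373 rows that could be compared, within 0.001 percentage points. The same interval had heights in the table and in the merged lists that differed by up to 0.12, so the sign of a difference of that size is uncertain. Intervals are exact conditional 95% intervals for a pair of Poisson counts, with tags estimated from the heights. The code was tested on simulated data with known answers. Analyses used scipy 1.17.1, pandas 2.3.3, numpy 2.4.6 and matplotlib 3.10.9 under Python 3.11.15. Other scalings, folds, overlaps, list thresholds, word lengths and windows, and each replicate alone, were tried.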

Additional observations from a re-analysis of the deposited data

How the results depend on the processing

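Scaling set the size of the differences. The median ΔDL difference of -0.33 became -1.39 with equal medians over the rows of all 3 proteins, and the peaks at least 2-fold lower rose from 6 to 25; with a threshold of 4-fold they numbered 0. The median DBD difference of -3.21 became -2.05 with equal medians over all rows, a scaling that turned the Acta2 difference from -1.14 to 0.02. Peaks holding a KLF word numbered 19 rather than 34 with 8-letter words. From the replicates left alone, the ΔDL median was between -0.24 and -0.13, over 28 and 15 peaks whose combined heights gave -0.295 and -0.05, and the DBD median between -2.55 and -2.34, over 1 and 2 peaks. The other counts stayed within 1.5 times, and the exact p of the mutant lists stayed 0.333 under the other thresholds and overlaps of the lists. An overlap of 200 bp gave no value, since replicate peaks were 97 to 143 bp wide; 50% of the replicate peak, chosen after seeing the data, left every count of found peaks the same. With the lists paired by number as a replicate block, also chosen after seeing the data, ΔDL found 14 and 27 more peaks than DBD, a mean of 20.5 (exact sign permutation p = 0.50, the smallest that 2 pairs allow); the sources used here do not state that the numbers pair the constructs, and the combined heights have no replicates to pair. The tags behind a list ranged from 1.77 M to 18.1 M, and the part of depth in the calls was not tested. The cause of the effect of scaling was not tested.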
